A study of Mus musculus with 170 samples.

Results

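The genes of DNA replication and nucleotide supply were a set of 37 listed genes, each with a row among the 40549 gene rows of the deposited table. They were chosen by name: the 6 subunits of the MCM helicase, 4 origin licensing genes, 6 genes of helicase activation, the clamp with its 5 loader subunits, 6 polymerase and primase genes, 4 genes of single-strand binding and Okazaki fragment processing, and 5 genes of deoxynucleotide supply. Expression was measured by Smart-seq2, a full-length RNA-seq protocol, in single cells picked by hand from the ventricle of C57BL/6 mouse hearts at embryonic day 9.5. Control cells, labelled wild type, came in the study from embryos with floxed Dgcr8 alleles and the Rosa26 mT/mG membrane reporter but no Cre, and conditional knockout (cKO) cells were labelled Mesp1Cre/+; Dgcr8-/- and carried the same reporter. Mesp1Cre acts in early mesoderm that forms most heart lineages, and DGCR8 is the RNA-binding partner of Drosha that is needed to make most microRNAs. The table held 143 cells, 74 control cells (35 in sequencing batch 1 and 39 in batch 2) and 69 cKO cells (35 and 34), and values are in TPM, which corrects for transcript length and sets each cell to the same total. The labels name no embryo, so a genotype is 1 sample here, its cells do not stand in for animals, and the genotypes were compared without a p-value.

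Before a cell divides, ORC, CDC6 and CDT1 load the MCM helicase on origins, and CDC45 and GINS switch it on. Polymerase alpha and its primase then start each strand, polymerases delta and epsilon extend it while tethered to the PCNA clamp, and RPA covers the single strands. Ribonucleotide reductase, thymidylate synthase, thymidine kinase and dUTPase feed the fork, and dUTPase (Dut) also keeps uracil out of DNA by destroying dUTP. Many of these genes are transcribed in a wave at the G1 to S transition under E2F factors, and embryonic cardiomyocytes still divide at this stage.

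The promoter windows of 4 of the genes are shown because Dut and Rrm2 had the largest differences between genotypes, whereas Rfc3 and Mcm6 carry the E2F words that mark part of the set. Each window is RefSeq sequence of 250 bases before to 50 bases after an annotated start (GRCm38.p6), written 5′ to 3′ on the gene's strand. Capitals mark matches on either strand to CCAAT or to 1 of 4 words for the E2F site (TTTCCCGC, TTTCGCGC, TTTGCCGC, TTTGGCGC), and neighbouring matches may overlap.
Dut, chr2:125247265-125247564 (plus strand): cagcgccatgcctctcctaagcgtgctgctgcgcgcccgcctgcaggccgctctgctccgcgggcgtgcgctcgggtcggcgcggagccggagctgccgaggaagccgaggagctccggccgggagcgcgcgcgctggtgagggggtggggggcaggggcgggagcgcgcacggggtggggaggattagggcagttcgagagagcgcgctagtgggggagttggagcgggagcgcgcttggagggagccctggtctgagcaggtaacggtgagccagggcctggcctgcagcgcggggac
Rrm2, chr12:24708004-24708303 (plus strand): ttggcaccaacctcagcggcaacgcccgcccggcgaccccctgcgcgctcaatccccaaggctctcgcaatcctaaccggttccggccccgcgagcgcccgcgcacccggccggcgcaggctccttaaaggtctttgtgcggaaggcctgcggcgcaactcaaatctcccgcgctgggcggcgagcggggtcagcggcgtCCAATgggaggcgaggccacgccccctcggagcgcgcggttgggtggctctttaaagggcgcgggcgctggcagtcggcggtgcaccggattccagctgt
Rfc3, chr5:151651159-151651458 (minus strand): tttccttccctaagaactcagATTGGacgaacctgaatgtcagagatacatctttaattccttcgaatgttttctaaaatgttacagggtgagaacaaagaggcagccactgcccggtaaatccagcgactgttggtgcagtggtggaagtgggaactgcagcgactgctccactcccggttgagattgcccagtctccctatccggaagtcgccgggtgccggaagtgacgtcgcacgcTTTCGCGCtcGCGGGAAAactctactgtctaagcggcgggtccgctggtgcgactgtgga
Mcm6, chr1:128359656-128359955 (minus strand): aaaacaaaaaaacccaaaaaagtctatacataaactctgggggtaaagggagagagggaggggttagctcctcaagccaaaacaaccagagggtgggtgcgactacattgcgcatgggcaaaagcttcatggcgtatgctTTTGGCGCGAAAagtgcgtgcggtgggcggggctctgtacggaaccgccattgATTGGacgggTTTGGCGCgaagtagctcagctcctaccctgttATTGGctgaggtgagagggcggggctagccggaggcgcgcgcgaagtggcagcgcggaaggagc
The Dut window held neither kind of word, and it lay inside the GENCODE M21 gene, which spans chr2:125247190-125258608 on the plus strand. The Rrm2 window held 1 CCAAT match and no E2F word. An E2F word stood in the windows of 12 of the 30 genes of the set that had one (40%), against 2.61% of all 27025 genes with a window, and CCAAT in 19 of 30 (63.3%) against 41.1%. The 12 genes with an E2F word were Mcm3, Mcm5, Mcm6, Mcm7, Orc1, Cdc6, Cdt1, Gins3, Rfc3, Pola1, Pold1 and Lig1. Windows were not used here for Mcm4, Gins1, Gins2, Gins4, Rfc2, Prim2 and Pole.

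Cells were grouped by Ward clustering on 55 marker genes of 5 cell classes. The cardiomyocyte-like (CM-like) cluster held 93 cells, 26 of them control (18 in batch 1, 8 in batch 2) and 67 cKO (33 and 34), with 15 of 15 cardiomyocyte markers raised over the other cells. Endothelial-like (22), erythroid-like (5) and a 13-cell cluster led by Upk3b and Tcf21 were all control cells, so genotypes were compared in CM-like cells. A remaining cluster of 10 cells was led by mitochondrial transcripts and stayed unnamed. The median number of detected genes (TPM above 0), the one trace of depth in these values, moved in opposite directions in the batches, from 8477 in control to 9845 in cKO CM-like cells in batch 1 and from 9704 to 7765 in batch 2. Mitochondrial transcripts took a median of 6.27% of TPM in control and 3.00% in cKO CM-like cells (6.27% and 3.19% in batch 1, 6.25% and 2.82% in batch 2), and their part in the results was not tested. In CM-like cells the 13 endothelial markers summed to a median of 22.5 TPM in control (range 1.82 to 270) and 54.5 in cKO cells (2.76 to 439), 1 and 2 of them reaching a TPM of 1 in most cells, and the 14 mesenchymal markers to 182 (1.27 to 587) and 396 (6.75 to 2111), also 1 and 2 of them, with 1 and 2 at 0 in every cell. The 6 epicardial markers summed to a median of 25.2 TPM (0.31 to 533) and 34.8 (0 to 454), with 1 of them at a TPM of 1 in most cells of either genotype, and the 7 erythroid markers to 2.07 (0 to 357) and 9.49 (0 to 816), with none; their part in the results was not tested. The targeted gene Dgcr8 was detected (TPM 1 or more) in 13 of 26 control and 21 of 67 cKO CM-like cells, at levels from 0 to 8.82 and from 0 to 7.70 on the log2(TPM + 1) scale. Xist reached that level in 3 of 74 control and 64 of 69 cKO cells, and the Y-linked Ddx3y in 49 of 74 and 0 of 69 (a share of up to 4.35% is allowed by 0 of 69), so genotype and sex of the embryos cannot be told apart. Pola1 is the 1 gene of the set on the X chromosome.

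Most of the set was lower in cKO than in control CM-like cells. A difference here is the mean log2(TPM + 1) of cKO minus that of control CM-like cells, taken for the 15059 genes above 0 in more than 10 CM-like cells, and all 37 genes of the set were among them. The batches made up unequal parts of the control and cKO cells. A pooled difference therefore holds some batch composition and can lie outside its values within the batches, as it did for Dut and Rfc1. The median difference of the 37 genes was -0.67 (-0.31 within batch 1 and -0.96 within batch 2), against 0.03 over all genes tested (0.14 and -0.20). Of the 37 genes, 31 lay below 0, against 46.8% of all genes tested. The sign was negative in both batches for 25 genes (67.6%, against 27% of all genes), positive in both for 3 genes (Gins2, Rfc1 and Lig1) and opposite in the batches for the other 9. A gene was called lower when its difference was -1 or below and negative in both batches. This held for 9 of the 37 genes (24.3%), whereas 7.06% of all genes tested were called lower. None of the 37 was called higher, against a background of 5.78%. Such calls were more frequent among well detected genes. With genes kept that reached TPM 1 in the majority of control or of cKO CM-like cells, 9 of 33 genes of the set (27.3%) were called lower against 13.8% of all such genes. The 9 genes were Dut, Rrm2, Mcm4, Pold1, Prim1, Rfc3, Rfc2, Gins4 and Rpa1. In cells with 7000 to 11000 detected genes (56 cKO, 23 control) the median was -0.50, against 0.10 for all genes, and 5 genes were called (13.5%, against 5.33% of all genes tested), namely Dut, Rrm2, Pold1, Prim1 and Mcm4. On the log2 ratio of mean TPM, which weighs the cells with high values most, the median was -0.20 against 0.18 for all genes, and Dut and Rrm2 were the 2 genes called (5.41%, against 4.69% of all genes tested), a share near that background.

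**Figure D1:**
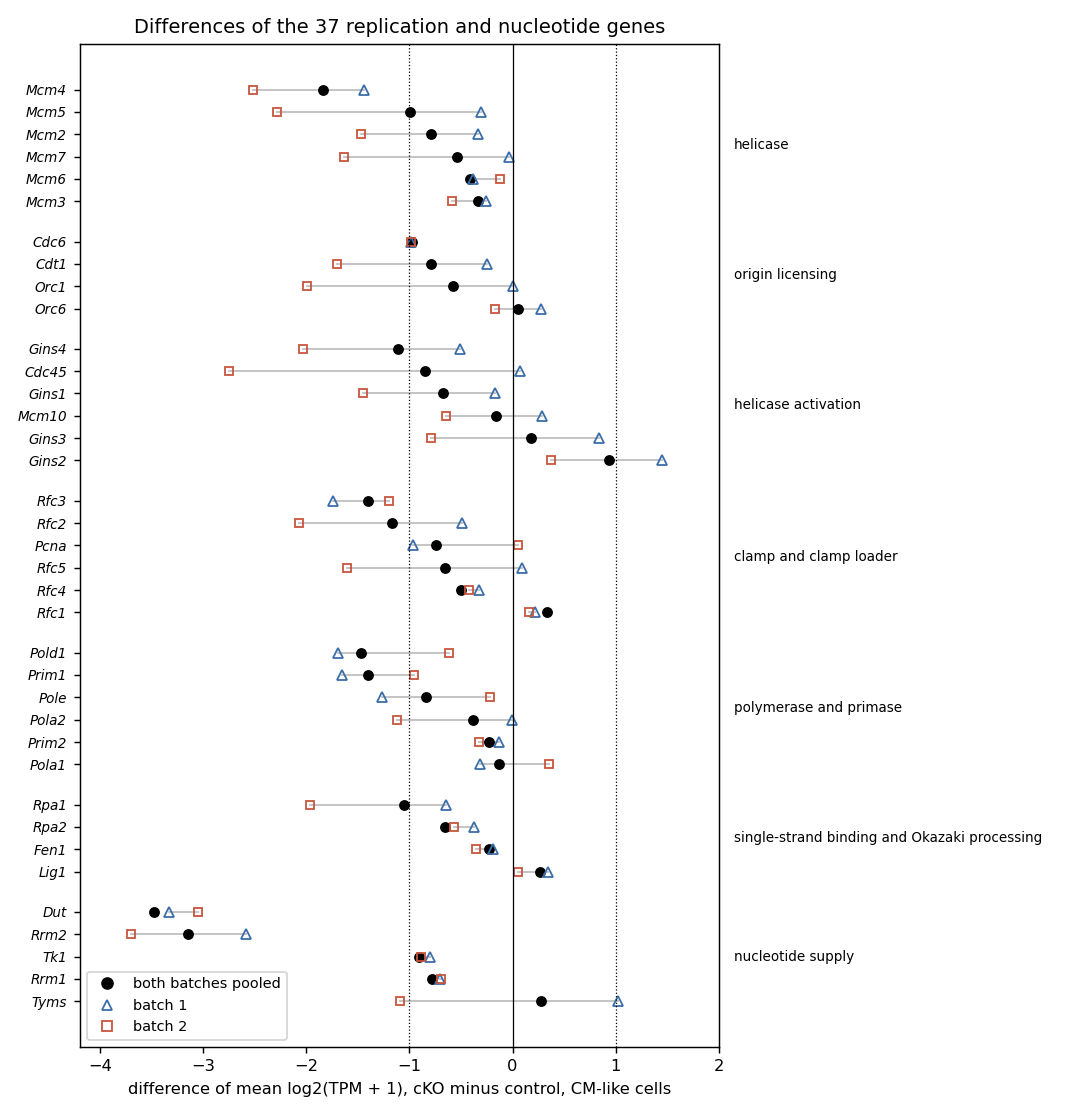
Difference of mean log2(TPM + 1), cKO minus control, in CM-like cells for each of the 37 genes, grouped by role, with both batches pooled (filled circles), batch 1 (triangles, 18 control and 33 cKO cells) and batch 2 (squares, 8 and 34 cells). Dotted lines mark -1 and 1, and Dut and Rrm2 are the 2 genes left of -2.5 in both batches.

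Among the genes of nucleotide supply, Dut and Rrm2 differed most. Dut encodes dUTPase, which turns dUTP into dUMP, the substrate of thymidylate synthase. In control CM-like cells Dut ranged from 0 to 9.58 with a median of 7.89, and in cKO CM-like cells from 0 to 8.55 with a median of 4.82. The ranges overlapped, but 57 of 67 cKO cells (85.1%) lay below the lower quartile of the control cells (7.31). The mean was 7.51 ± 1.89 (SD across 26 cells) in control and 4.03 ± 2.99 (67 cells) in cKO cells, a difference of -3.48 (-3.34 in batch 1 and -3.05 in batch 2). Dut was detected, meaning TPM 1 or more, in 25 of 26 control cells (96.2%, exact 95% interval 80.4 to 99.9%) and 50 of 67 cKO cells (74.6%, 62.5 to 84.5%), where intervals cover counting error only. Among the cells in which it was detected, the mean was 7.81 in control and 5.35 in cKO cells, so both the share of cells and the level in them were lower.

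Rrm2, the small subunit of ribonucleotide reductase that rises in S phase, was the other gene with a difference of this size. It ranged from 1.15 to 9.28 (median 7.86) in control and from 0 to 9.46 (median 5.27) in cKO CM-like cells, with overlapping ranges. The means were 7.58 ± 1.55 and 4.44 ± 3.05, a difference of -3.15 (-2.59 and -3.70 in the batches). Rrm2 was detected in 26 of 26 control cells (exact 95% interval 86.8 to 100%) and 54 of 67 cKO cells (80.6%, 69.1 to 89.2%). Dut and Rrm2 were the 2 genes of the set whose difference exceeded the larger SD across cells, a measure not computed over all genes. The other genes of this role differed less. Rrm1, the large subunit of the same reductase, differed by -0.79 (-0.70 and -0.69), and Tk1, the thymidine kinase of the salvage route, by -0.91 (-0.80 and -0.89). Tyms, which makes dTMP from dUMP, went in opposite directions in the batches, from a mean of 4.70 ± 2.69 in control to 4.98 ± 2.52 in cKO cells when pooled.

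**Figure D2:**
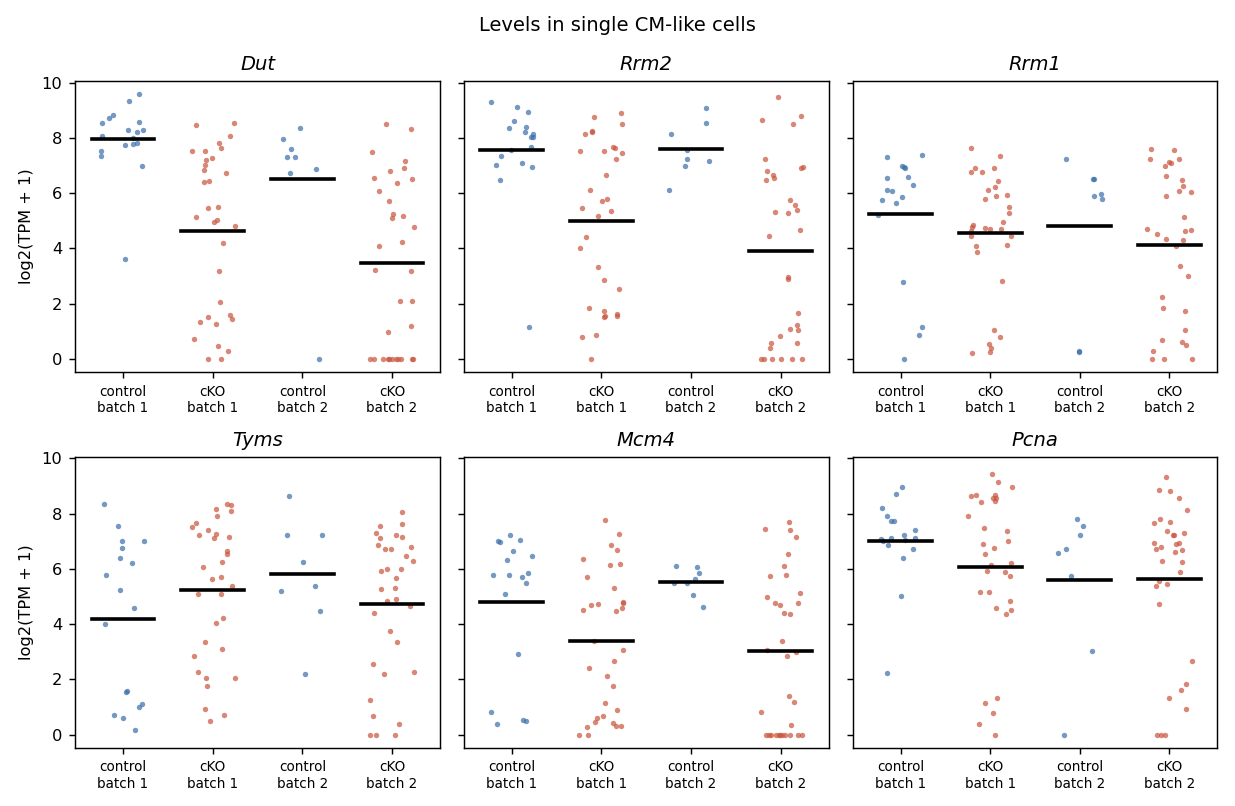
Log2(TPM + 1) of 6 genes in single CM-like cells by genotype and batch, 1 point per cell, with a black line at each mean. Control cells lie mostly above 6 for Dut and Rrm2 in both batches, whereas cKO cells spread from 0 to above 8, and the groups overlap more for Rrm1, Tyms, Mcm4 and Pcna.

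Dut and Rrm2 had the 2 lowest differences of the set when pooled, at like size, and since Dut is named here with those values known, its distance from the others is a description. The median of the other 36 genes was -0.67, and Dut minus that median was -2.82 when pooled (-3.03 in batch 1 and -2.13 in batch 2). Dut and Rrm2 also had the highest control means of the set (7.51 and 7.58), and a gene cannot fall by more than its control mean. Genes with low control means, such as Gins3 (1.18) and Orc1 (1.40), could not differ by as much as Dut. The part of this room to fall in the distance was not tested. Of all 15059 genes tested, 5 had a lower difference than Dut and 7 a lower one than Rrm2 (3 and 15 in batch 1, 156 and 45 in batch 2). Dut was the lowest of the 37 genes in batch 1 and Rrm2 in batch 2. The comparison was repeated in cells whose other 36 genes averaged between 3 and 5, a range chosen after seeing the data. Within this range the mean of the other genes still differed, at 4.14 in control and 3.90 in cKO cells (4.10 and 4.15 in batch 1, 4.32 and 3.58 in batch 2). There Dut was 7.95 ± 0.81 in 11 control cells (6.72 to 9.33) and 5.40 ± 2.08 in 23 cKO cells (0 to 8.55), a difference of -2.55 (-2.45 and -2.01 in the batches, the latter with 2 control cells). Rrm2 was 7.25 ± 2.02 in 12 control and 5.07 ± 2.72 in 24 cKO cells of the same range, a difference of -2.18 (-1.38 and -3.14). Both genes were detected together in 25 of 26 control and 43 of 67 cKO CM-like cells, with 7 cKO cells holding Dut alone, 11 Rrm2 alone and 6 neither.

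**Figure D3:**
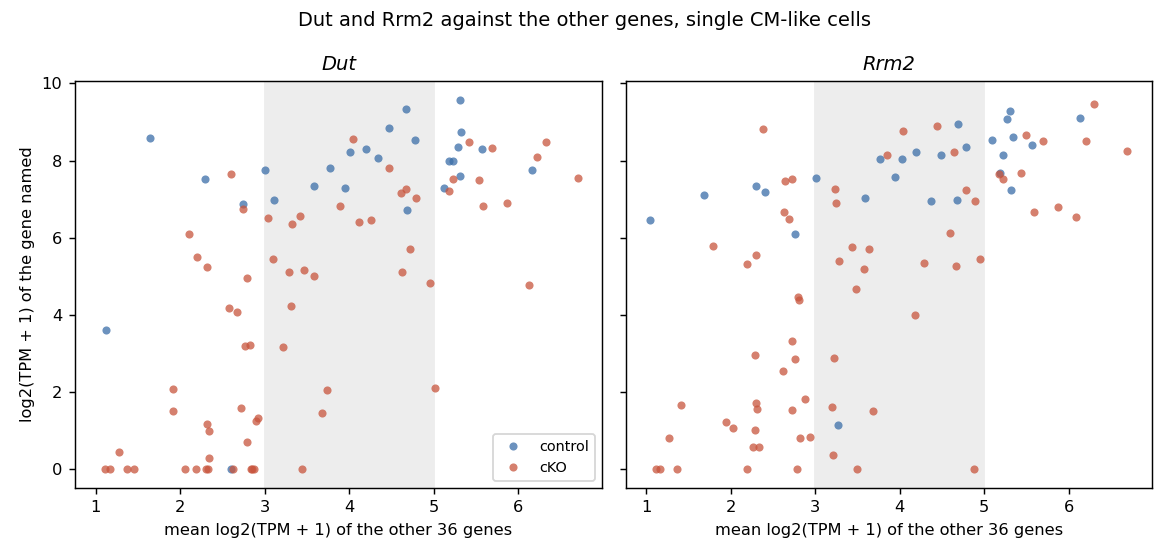
Log2(TPM + 1) of Dut (left) and Rrm2 (right) in each CM-like cell against the mean log2(TPM + 1) of the other 36 genes in the same cell, for 26 control and 67 cKO cells. In the shaded range of 3 to 5 most control points lie near 7 to 9, and the cKO points reach from 0 to about 9.

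MCM2 to MCM7 form the hexameric ring of the helicase that unwinds DNA, and all 6 genes were below 0 in both batches, with a median difference of -0.66 (-0.32 and -1.55), although Mcm3 turned above 0 when cell means of TPM were compared before the log (0.22) and with 4 clusters in place of 5 (0.23), as did Mcm6 with 4 clusters (0.13). Mcm4 was the lowest. It ranged from 0.36 to 7.23 (median 5.74) in control and from 0 to 7.77 (median 3.07) in cKO cells, ranges that overlapped almost entirely. Its means were 5.03 ± 2.14 and 3.20 ± 2.64, a difference of -1.84 (-1.44 and -2.51), and it was detected in 22 of 26 and 44 of 67 cells (84.6% and 65.7%). Mcm5 differed by -0.99, just short of the call, Mcm2 by -0.79, Mcm7 by -0.54, Mcm6 by -0.41 and Mcm3 by -0.34. Of the licensing genes, Cdc6 (-0.98) and Cdt1 (-0.79) were negative in both batches. The origin recognition subunits Orc1 (-0.58) and Orc6 (0.05) had opposite signs in the batches.

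The genes of helicase activation were mixed. The 4 GINS subunits join CDC45 and the MCM ring in the active helicase, and their transcripts differed in sign. Gins4 (-1.11, detected in 19 of 26 and 38 of 67 cells) was called lower and Gins1 differed by -0.67, whereas Gins3 (0.18), Cdc45 (-0.85) and Mcm10 (-0.16), a factor that acts at helicase start, had opposite signs in the batches. Gins2 was the highest of the set. It ranged from 0 to 8.16 (median 4.78) in control and from 0 to 9.10 (median 5.76) in cKO cells, with means of 4.16 ± 2.85 and 5.10 ± 2.75. Its difference was 0.94 (1.45 and 0.37), under the spread across cells, and it was detected in 20 of 26 and 57 of 67 cells (76.9% and 85.1%).

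The clamp loader split among its subunits. Pcna, the sliding clamp, was 6.58 ± 2.00 in control and 5.84 ± 2.75 in cKO cells, a difference of -0.74 that came from batch 1 (-0.97, against 0.05 in batch 2). RFC1 to RFC5 load that clamp. Rfc3 (-1.40, with -1.74 and -1.20) and Rfc2 (-1.17, with -0.49 and -2.07) were called lower, Rfc4 differed by -0.50 (0.17 on the ratio of mean TPM, 0.30 with 4 clusters), and Rfc5 (-0.66) had opposite signs. Rfc1, the large subunit, was higher in cKO cells in both batches, from a range of 0 to 7.80 (median 4.66) in control to 0 to 9.08 (median 5.24) in cKO cells. Its means were 4.26 ± 1.95 and 4.59 ± 2.49, a difference of 0.33 (0.21 and 0.16), with detection in 22 of 26 and 56 of 67 cells (84.6% and 83.6%).

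Of the polymerase and primase genes, Pold1 and Prim1 were called lower. Pold1, the catalytic subunit of polymerase delta, ranged from 0 to 9.13 (median 4.09) in control and from 0 to 9.61 (median 0.17) in cKO cells. Its means were 3.38 ± 3.04 and 1.91 ± 2.73, a difference of -1.47 (-1.70 and -0.61), and it was detected in 17 of 26 and 26 of 67 cells (65.4% and 38.8%). Pold1 stayed under a TPM of 1 in most cKO cells, while the highest cKO cell lay above every control cell. Prim1, the catalytic primase subunit, ranged from 0 to 7.64 (median 5.38) and from 0 to 8.24 (median 2.58), with means of 4.59 ± 2.42 and 3.19 ± 3.01. It differed by -1.41 (-1.66 and -0.96) and was detected in 22 of 26 and 36 of 67 cells (84.6% and 53.7%). Where it was detected, however, Prim1 was 0.38 higher in cKO cells. Prim2, the other primase subunit, ranged from 0.43 to 6.76 (median 3.27) in control and from 0 to 6.86 (median 2.40) in cKO cells. It was 3.21 ± 1.80 and 2.98 ± 1.91, a difference of -0.23 (-0.13 and -0.33) that turned to 0.03 on the ratio of mean TPM and to 0.11 with 4 clusters, and was detected in 23 of 26 and 59 of 67 cells (88.5% and 88.1%). Pole, the catalytic subunit of polymerase epsilon, differed by -0.84, Pola2 by -0.38 and the X-linked Pola1 by -0.13, the last with opposite signs.

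Of the genes that handle single strands, Rpa1, the large subunit of the RPA complex, was called lower at -1.05 (-0.65 and -1.97), and its partner Rpa2 differed by -0.65 (0.14 with 4 clusters). The genes that finish Okazaki fragments differed little. Fen1, the flap endonuclease, ranged from 0 to 7.29 (median 4.21) in control and from 0 to 8.57 (median 3.31) in cKO cells. It was 3.24 ± 2.81 and 3.01 ± 2.86, a difference of -0.23 (-0.19 and -0.36) that turned to 0.08 on the log2 ratio of mean TPM, 0.12 in cells with 7000 to 11000 detected genes and 0.34 with 4 clusters, and was detected in 15 of 26 and 36 of 67 cells (57.7% and 53.7%). Lig1, the ligase that seals the fragments, ranged from 0.38 to 8.82 (median 5.14) and from 0 to 9.23 (median 5.77). It was 4.44 ± 2.63 and 4.70 ± 2.86, a difference of 0.26 (0.34 and 0.05) that turned to -0.08 with a pseudocount of 0.1, with detection in 21 of 26 and 52 of 67 cells (80.8% and 77.6%).

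The share of cells with TPM 1 or more was lower in cKO than in control CM-like cells for 34 of the 37 genes (91.9%, against 49.4% of all genes tested) and higher for 3 (Gins2, Gins3 and Tyms). Within the cells that held the transcript, the median difference over the 37 genes was -0.19, against 0.17 over all genes tested, and 22 genes were below 0. The share of all genes below 0 in such cells was not computed. Dut (-2.46) and Rrm2 (-2.15) kept most of their difference there, and Mcm4 kept -1.10. This was not particular to them. Rpa1 (-0.91 there, -1.05 over all CM-like cells) and Mcm2 (-0.76 and -0.79) kept larger parts of smaller differences.

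**Figure D4:**
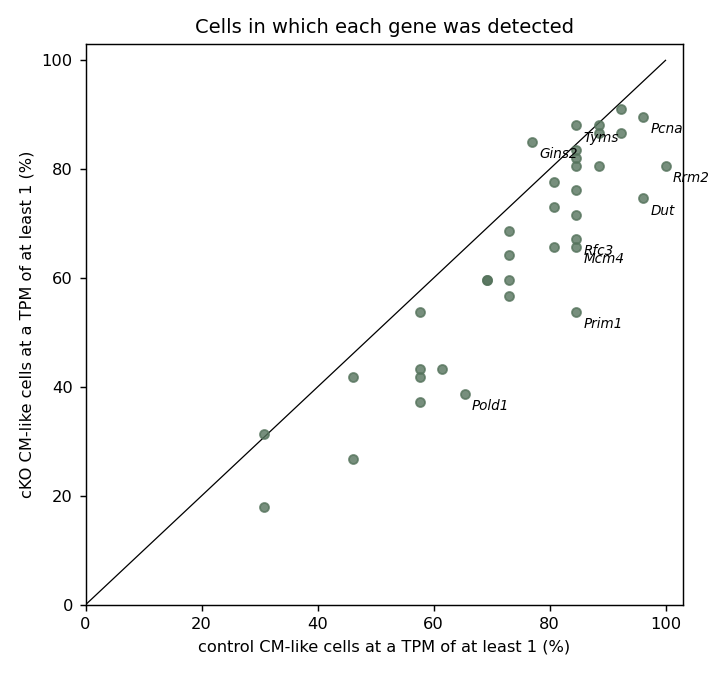
Share of CM-like cells with TPM 1 or more for each of the 37 genes, control cells (26) on the horizontal and cKO cells (67) on the vertical axis, with the line of equal shares. Points for 34 genes lie below the line, and Gins2, Tyms and Gins3 lie above it.

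Among genes with a window, those with and without an E2F word had similar median differences. The 12 genes with a word had a median difference of -0.56 and included 2 called lower (Rfc3 and Pold1), and the 18 with a window but no word had a median of -0.70 and included 4. Mcm4, Gins4 and Rfc2, also called lower, had no window here. The Dut window began inside its gene, so bases before the gene start were not scanned. With few genes and exact words only, a role of E2F was not tested.

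Within control cells, 18 of the 37 genes were called higher in endothelial-like than in CM-like cells and 7 had a difference below 0. The median difference, endothelial-like minus CM-like, was 1.05 over the 37 genes (1.67 in batch 1 and 0.40 in batch 2), against 0.25 over all genes tested. The 18 genes (48.6%) were higher by at least 1 and positive in both batches, against 19.5% of all genes, and 0 of the 37 were lower by that rule, against 8.63%. Tyms was highest in this comparison, at 7.64 ± 0.82 in 22 endothelial-like and 4.70 ± 2.69 in 26 CM-like cells (difference 2.94), followed by Tk1 (2.67) and Mcm3 (2.14). All 6 MCM genes were among the 18. The 7 genes below 0 were Gins4 (-1.70, with 0.04 and -2.98 in the batches), Dut, Pole (-0.62), Mcm10 (-0.45), Gins3 (-0.40), Rrm2 and Prim1 (-0.20). The share of all genes below 0 was not computed for this comparison. Dut was 6.67 ± 1.80 in endothelial-like cells, a difference of -0.85 from its mean in CM-like cells (-0.42 and -0.25 within the batches). Rrm2 was 7.23 ± 1.99, a difference of -0.36. The mean level per cell over the 36 genes without Dut was 5.02 ± 0.66 in endothelial-like, 4.13 ± 1.30 in control CM-like and 3.47 ± 1.40 in cKO CM-like cells.

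In the 13-cell cluster led by Upk3b and Tcf21 the median difference from control CM-like cells was 0.42 (1.05 and -0.03 in the batches). Over all genes tested it was 0.24 (0.17 and 0.05). Orc6, Prim2, Lig1 and Tyms were called higher there, 10.8% of the set against 18% of all genes, and none was called lower against 8.34%. Dut was 6.90 ± 2.00 in these cells and 7.67 ± 0.74 in the 5 erythroid-like cells, above its mean of 4.03 in cKO CM-like cells in both groups. Rrm2 was 5.72 ± 2.85 and 8.54 ± 1.26 in the same 2 groups. In the 8 control cells of the cluster led by mitochondrial transcripts, which had a median of 5926 detected genes for the whole cluster, Dut averaged 2.78 and the other 36 genes 1.74.

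**Figure D5:**
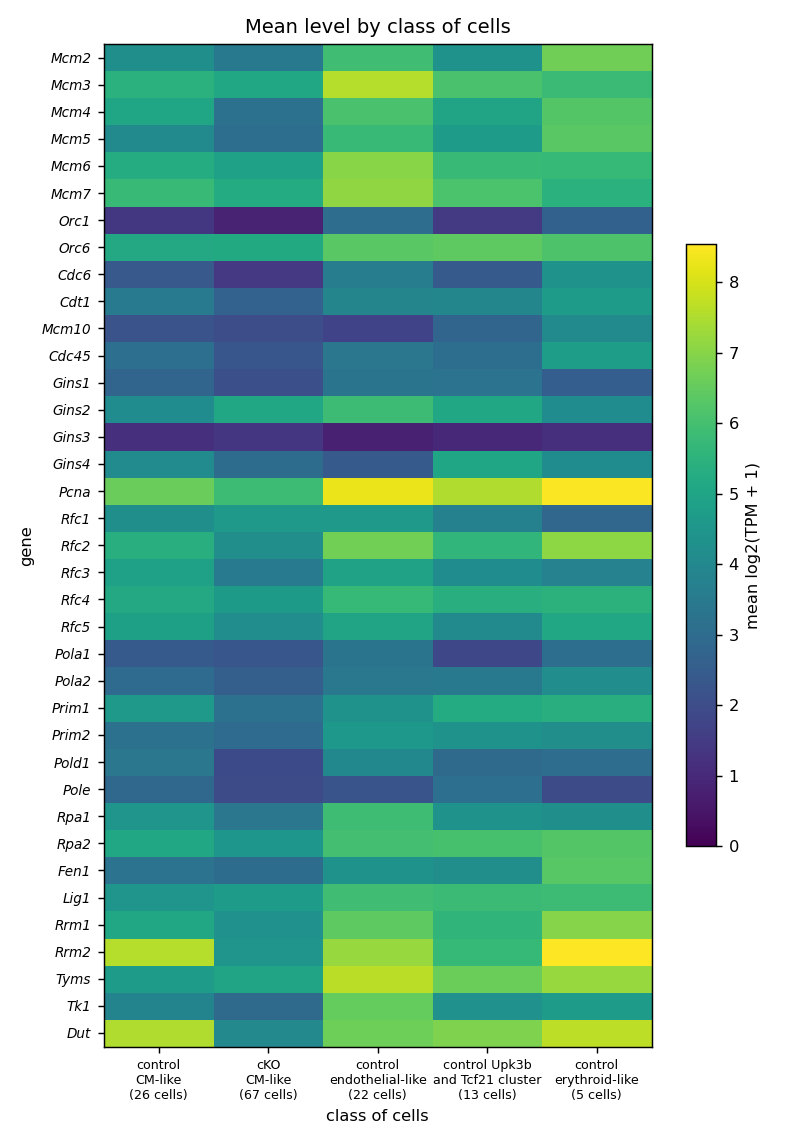
Mean log2(TPM + 1) of each of the 37 genes (rows, in order of role) in 5 groups of cells (columns, with the number of cells), on a colour scale that starts at 0. Dut and Rrm2 are at 7.51 and 7.58 in control CM-like cells and at 4.03 and 4.44 in cKO CM-like cells, while Tyms and Pcna have higher means in the other 3 columns.

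From cell to cell, most genes of the set varied with the mean of the others in both genotypes. The correlation (Pearson's r) of a gene with the mean of the other genes of the set had a median of 0.54 over 26 control CM-like cells (-0.08 for Pola1 to 0.75 for Mcm2) and 0.51 over 67 cKO CM-like cells (0.22 for Rfc1 to 0.71 for Dut). Dut had r = 0.50 in control cells and Rrm2 r = 0.49, and in cKO cells they had 0.71 and 0.65. Between Dut and Rrm2 themselves r was 0.31 in control and 0.49 in cKO cells. Cells of 1 genotype share their source and differ in depth. The mean of the 36 genes without Dut followed the number of detected genes with r = 0.63 in control and 0.30 in cKO cells. Dut itself followed that number with r = 0.57 in control and 0.29 in cKO cells. The median r of all genes with the set is not given here. These values are therefore descriptions, and the part of depth in them was not tested. Outside the set, the 10 genes that followed the mean of the 37 most closely over the 67 cKO cells, among 9337 genes detected in at least 25% of them, included 2810417H13Rik (r = 0.71), Pfas (0.68), Uhrf1 (0.67), Tipin (0.65), Dtl (0.64), Ccne2 (0.61), Dna2 (0.59) and Chaf1b (0.59). Several of these are known S-phase genes, among them Tipin of the fork protection complex, the cyclin Ccne2 and the histone chaperone subunit Chaf1b.

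Other genes of the same pathways were taken from further lists, to be read against the 7.06% of all genes tested that were called lower and the 5.78% called higher. Among genes at TPM 1 in the majority of control or of cKO CM-like cells, 13.8% were called lower. The lists were not split by detection, so for lists of well detected genes 7.06% is a low background. The lowest and highest genes given are those among genes of 1 sign in both batches. Of 31 other replication genes, 3 were called lower (9.68%, near the background) and 0 higher, with a median of -0.58. The polymerase subunits Pole3 (-1.77) and Pold2 (-1.51) were lowest, and Recql4 (0.39) and Dna2 (0.07) highest. Of 29 other genes of nucleotide synthesis that passed the filter, 12 were called lower (41.4%) and 3 higher (10.3%), with a median of -0.83 (-0.61 and -1.48). The lowest were Dctpp1, which destroys surplus and modified dCTP, from 7.85 ± 1.51 to 4.97 ± 3.03 (-2.88, with -2.25 and -3.66), and Dctd, the dCMP deaminase that makes dUMP, from 5.06 ± 2.46 to 2.83 ± 2.71 (-2.22). The highest were the mitochondrial folate enzymes Mthfd2 (1.81, with 2.37 and 0.05) and Shmt2 (1.66, with 1.21 and 2.14). Of the 5 genes of uracil excision, which removes the uracil that dUTPase keeps out, the glycosylase Ung was the 1 called lower (20%), at -1.27 (-1.28 and -0.98), and Apex1 differed by -0.98. Of 27 S-phase regulators and chromatin genes, 5 were called lower (18.5%) and 1 higher (3.70%), with a median of -0.35. Uhrf1 (-1.70), which brings the maintenance methyltransferase to new DNA, and the cyclin Ccna2 (-1.27) were lowest, and E2f5 (1.71) and that methyltransferase, Dnmt1 (0.77), highest. Of 15 mitosis genes, 5 were called lower (33.3%) and 2 higher (13.3%), with a median of -0.12. Kif20a (-1.74) and Ccnb1 (-1.48) were lowest, and Aurkb (1.50) and Top2a (1.21) highest.

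The 5 tested genes on each side of Dut on chromosome 2 were not all close to it. By start position Slc30a4 lay at -2566 kb, Bloc1s6 at -2509 kb and Sema6d at -1157 kb, and the farthest of the rest was Secisbp2l at 490 kb. Of these genes, Bloc1s6, Sema6d, Slc24a5, Myef2 and Eid1 were not lower in cKO cells by 1 or more. The others, Slc30a4, Fbn1, Cep152, Shc4 and Secisbp2l, had control means of 0.39 to 0.92, so a fall of 1 was not possible. Among the 5 tested genes on each side, differences ran from -0.37 for Slc24a5 to 2.40 for Eid1 (2.47 and 2.31 in the batches), and Fbn1, the nearest downstream, differed by -0.06 at a mean of 0.39 in control cells.

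Reads of some genes of the set could be shared with other annotated genes. Over at least 400 bases at 90% identity or more, the longest coding transcripts of Cdc6, Mcm4, Mcm7, Pcna, Rfc5, Rrm2 and Tyms matched processed pseudogenes, and those of Fen1, Gins2, Rfc2 and Rfc5 matched transcripts of overlapping genes (Gm10143, Gse1, Lat2 and Wsb2) exactly. The Pcna pseudogene Pcna-ps2 was detected in 1 control and 0 cKO CM-like cells (0 of 67 allows a share of up to 4.48%). The overlapping genes were detected in more cells. Wsb2, which overlaps Rfc5, was detected in 12 control and 34 cKO CM-like cells, and Lat2, which overlaps Rfc2, in 8 and 16. Gm10143 (with Fen1) was detected in 9 and 10, and Gse1 (with Gins2) in 2 and 11. How Salmon divided reads among such copies could not be traced from TPM, so the values of these genes carry that uncertainty, whereas Dut had no match of this kind.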

How the data were processed

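Single-cell Smart-seq2 libraries were processed by the authors with Salmon against mm10 per the labels, and the deposited table gives TPM for 40549 genes in 143 cells. The version of Salmon and the annotation were not given in the sources used here. Of the 170 labelled samples, 27 had no matching column and were not analysed here. TPM sums to nearly the same total in each cell (996133 to 999999), so sequencing depth is unknown, and detected genes served in its place. TPM is relative, so an abundant transcript lowers the others of its cell, and a value of 0 may be dropout.

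All further values were computed here with Python 3.11.15, numpy 2.4.6, scipy 1.17.1 and pandas 2.3.3. TPM was taken as log2(TPM + 1), which understates changes of low genes. Cells were split into 5 clusters (Ward, z-scored markers), and a cluster was named from at least 3 markers. These classes were rebuilt here and may differ from those of the study, and doublets were not removed. Shares have exact Clopper-Pearson 95% intervals, which cover counting error only. Genotype, batch and each cell came from the labels. Since no embryo is named, no test between genotypes was made, and SDs measure the spread of cells, not of animals. The difference script was tested on simulated data. Similar transcripts were sought with BLAST 2.17.0 in GENCODE M21.

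The 37 genes and all lists were chosen with earlier results of these data known. Full values were given for Dut and for the 5 lowest and 5 highest genes of the set whose sign was the same in both batches, the 2 lowest and 2 highest such genes were named from each other list, and the 10 genes that varied most closely with the set were taken, of which 2 are not reported here. Alternatives were other pseudocounts, filters, cluster numbers, scalings, single batches and a limit on detected genes.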

Additional observations from a re-analysis of the deposited data

Results flagged for a closer look

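Tyms, which makes dTMP, was the 1 gene of the set that differed by 1 or more in opposite directions in the 2 sequencing batches. Its mean log2(TPM + 1) in cKO minus control CM-like cells was 1.03 in batch 1 (18 control and 33 cKO cells) and -1.09 in batch 2 (8 and 34 cells). The difference between the batches was not tested, and the SD across cells was 2.69 in control and 2.52 in cKO cells.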

How the results depend on the processing

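The 4 main results that are differences between genotypes or cell classes kept their sign under every alternative run. Over all 8 main results, counts and shares included, 68 of 95 recomputed values stayed within the batch spread, the interval or 1.5 times the count. The batch spread was taken from the 2 single-batch values, which are themselves among the values judged. On the log2 ratio of mean TPM the median difference of the set was -0.20, Dut differed by -1.92 (-1.73 relative to the median of the others) and 2 genes were called lower. With a pseudocount of 0.1, Dut differed by -4.16, 17 genes were called lower and 1 higher, and with 10, Dut differed by -2.46 (-2.12 relative to the others) and 3 were called lower. Batch 1 alone gave 2 genes called higher and Dut detected in 84.8% of cKO and 100% of control CM-like cells. Batch 2 alone gave 17 genes called lower and a Dut difference of -3.05 (-2.13 relative to the others), and the mean of both batch differences was -3.20 for Dut. Cells with 7000 to 11000 detected genes gave 5 genes called lower, 1 called higher and Dut in 100% of control cells. With 4 clusters the CM-like group held 69 cKO and 34 control cells, as the 10 cells of the cluster led by mitochondrial transcripts joined it. The 36 genes without Dut averaged 1.74 in the 8 control and 0.87 in the 2 cKO cells of that cluster. With this grouping 3 genes were called lower and 1 higher, and Dut differed by -2.44. Over all cells of each genotype 15 were called lower and Dut differed by -2.69 (-1.82 relative to the others). In a single batch the rule used that batch alone, so its counts cannot be set beside the 9 of the main run. The share of all genes called lower was computed for the main rule, the limit on detected genes and the ratio of mean TPM. For the other counts here it was not, so they are not read as results about the set. In cells whose other 36 genes averaged between 3 and 5, chosen after seeing the data, Dut differed by -2.55. The cause of these changes was not tested. The 9 genes called lower kept a negative difference in all 110 recomputed values, from -4.16 to -1.92 for Dut, -3.70 to -1.36 for Rrm2 and -2.03 to -0.08 for Gins4. A call requires a negative sign in both batches, so the single-batch values and their mean were negative by that rule. With 6 clusters the CM-like group had the same numbers of cells as in the main run (67 cKO and 26 control). Of the 28 genes of 1 sign in both batches, 7 changed sign under an alternative other than a single batch, 6 of them with 4 clusters (Mcm3, Mcm6, Rfc4, Prim2, Rpa2 and Fen1), 4 on the ratio of mean TPM (Mcm3, Rfc4, Prim2 and Fen1), Fen1 also in cells with 7000 to 11000 detected genes, and Lig1 with a pseudocount of 0.1 and over all cells (-0.36). No paired analysis was possible because a number in a label marks 1 cell and genotypes were compared without a test.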
